A study of Mus musculus with 6 samples.

Results

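The mouse mitochondrial genome is a small circular DNA whose 37 genes are transcribed inside the organelle, and all 37 were rows of the deposited gene table, among 28500 rows in all. They were chosen by position alone, as every row placed on the mitochondrial chromosome: 13 genes for mRNAs, 2 for rRNAs and 22 for tRNAs. The mRNAs encode membrane subunits of the respiratory chain and of ATP synthase, the rRNAs form the core of the mitochondrial ribosome, and the tRNAs serve its translation. Both strands of the circle are copied as long transcripts, and tRNA sequences placed between the other genes mark where these are cut. The cut mRNAs receive short poly(A) tails inside the organelle. Every other protein of the chain, and every factor that copies, cuts or translates mitochondrial RNA, is encoded in the nucleus. Colonocytes rely on mitochondrial oxidation of bacterial butyrate, and mitochondrial transcripts are abundant in colon epithelium.

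The groups were 3 Ube2fΔIEC mice, labelled KO, and 3 Ube2fflox mice, labelled WT. Ube2f encodes an enzyme that hands the ubiquitin-like protein NEDD8 to cullins. All 6 animals were labelled as males aged 8 weeks and as untreated with DSS (dextran sulfate sodium). The labels give no further allele for either group. The sources used here do not name the transgene that deletes Ube2f in intestinal epithelial cells. Colon epithelial cells were released with EDTA, strained and lysed in Trizol, and poly(A) RNA was captured on oligo(dT) beads before paired-end sequencing. Each mouse gave 1 library.

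Ube2f itself stood at 17.2, 18.0 and 21.0 CPM (counts per 1000000 counts of the library, scaled with TMM factors) in the Ube2fΔIEC libraries, against 34.0, 42.1 and 32.1 CPM in the Ube2fflox libraries, without overlap. Its log2 fold change was -0.95 (SE 0.13), with an adjusted p of 0.0923 in edgeR's quasi-likelihood test, so the transcript was present in both groups and lower in Ube2fΔIEC libraries without passing the test. The library labelled Ube2fΔIEC replicate 1 did not match its label of male: Xist stood at 494 CPM there and at most 1.33 CPM in the other 5, and the Y-linked genes Ddx3y, Uty, Kdm5d and Eif2s3y had 0 counts in it. Main results are therefore also given without that library. Totals ran from 55971362 to 77524693 counts. The epithelial markers Epcam, Cdh1, Krt8, Krt19 and Vil1 summed to 12041 to 13690 CPM in Ube2fΔIEC libraries and 12063 to 13871 CPM in Ube2fflox libraries, abundant in every library.

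The genes lie end to end, and several share bases, which bears on how reads are counted. Positions are 1-based on the GRCm38 mitochondrial chromosome, where all 37 rows have the coordinates of GENCODE M21. On the strand that carries most genes lie 12 of the 13 mRNA genes, both rRNA genes and 14 of the 22 tRNA genes. The mRNA gene mt-Nd6 and the other 8 tRNA genes lie on the opposite strand. mt-Atp8 (MT:7766-7969) and mt-Atp6 (MT:7927-8607), the 2 mitochondrial genes for ATP synthase, share 43 bases, printed here because a read from these bases belongs to both genes:
mt-Atp8/mt-Atp6 overlap: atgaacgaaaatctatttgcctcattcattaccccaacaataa
mt-Nd4l and mt-Nd4 share 7 bases, and the ends of mt-Nd5 and mt-Nd6 overlap by 14 bases on opposite strands. Whether the libraries keep strand is not given, so reads from such opposite genes cannot be told apart.

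Of the 13 mRNA genes, 10 encode a full stop codon and 3 end in a lone T, the first letter of a stop codon that the poly(A) tail completes. The last 15 bases of 6 genes on their own strand (mt-Nd6 from the opposite strand) are shown with the encoded stop letters in capitals, the first 3 being the incomplete ones:
mt-Co3 end: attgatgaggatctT
mt-Nd4 end: caggcctgacaataT
mt-Cytb end: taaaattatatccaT
mt-Atp6 end: catgataatacaTAA
mt-Nd5 end: attaatctcgagTAA
mt-Nd6 end: attactcgagatTAA
The letters also differ between strands. G made up 5.88% to 16.1% of the bases of the other 12 mRNA genes, and 28.1% of mt-Nd6, where C made up 5.97%.

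The mitochondrial genome took a smaller share of the counts in every Ube2fΔIEC library than in any Ube2fflox library. The 37 genes held 11.1, 10.4 and 11.1% of all counts in Ube2fΔIEC replicates 1 to 3, and 13.4, 15.96 and 21.3% in Ube2fflox replicates 1 to 3. The Ube2fΔIEC libraries lay close together, whereas the highest and lowest Ube2fflox libraries lay further apart than the means of the genotypes. The mean was 10.9 ± 0.450% in Ube2fΔIEC mice and 16.9 ± 4.01% in Ube2fflox mice (SD, n = 3 each), a difference of -6.00 percentage points and a ratio of 0.645. The 2-sided exact permutation p was 0.1, the smallest that 3 against 3 allows. Without Ube2fΔIEC replicate 1 the Ube2fΔIEC mean was 10.75%, and without Ube2fflox replicate 3 the difference was -3.80 points. Wilson 95% intervals reached at most 0.0101 points to either side, but they cover counting error only, because without molecular identifiers reads are no independent sample of molecules. In such bulk samples, fewer cells rich in mitochondria and less mitochondrial RNA per cell cannot be told apart.

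The 13 mRNAs made up nearly all of these counts. They held 10.9, 10.1 and 10.9% of all counts in Ube2fΔIEC libraries, against 13.2, 15.5 and 20.5% in Ube2fflox libraries. mt-Co1, the catalytic subunit of cytochrome c oxidase, alone took 5.56, 5.30 and 5.74% of all counts in Ube2fΔIEC libraries, and 6.68, 8.21 and 10.6% in Ube2fflox libraries. The tRNA genes held 0.0186, 0.0182 and 0.0200% in Ube2fΔIEC libraries, against 0.0251, 0.0278 and 0.0397% in Ube2fflox libraries. Neither set overlapped between the genotypes. The rRNA share did overlap, at 0.231, 0.202 and 0.262% in Ube2fΔIEC libraries against 0.232, 0.465 and 0.741% in Ube2fflox libraries. Ube2fflox replicate 1 thus lay among the Ube2fΔIEC libraries.

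**Figure D1:**
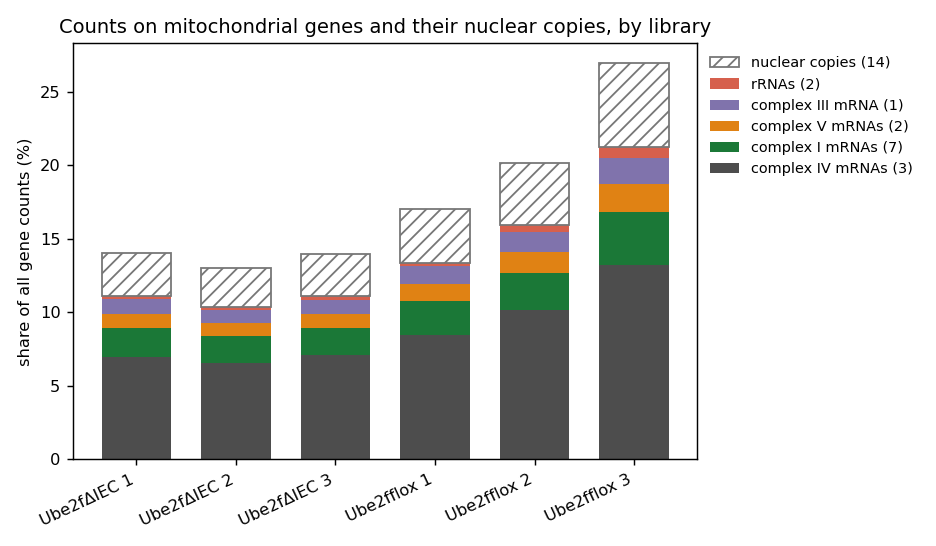
Share of all gene counts (%) in each library, stacked by gene class for the mitochondrial mRNAs and rRNAs, with the 14 nuclear copies of mitochondrial genes hatched on top; the tRNAs, under 0.04%, are not drawn. The mitochondrial part reached 10.4 to 11.1% in the 3 Ube2fΔIEC libraries on the left, and 13.4 to 21.3% in the 3 Ube2fflox libraries on the right.

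Within the genome, levels per length differed widely between transcripts cut from the same precursor. On the deposited FPKM scale, which divides by gene length, mt-Co1 was highest with a mean of 41079 over the 6 libraries, followed by mt-Atp6 at 12525, mt-Atp8 at 11988, mt-Co2 at 11011, mt-Co3 at 10282 and mt-Cytb at 9500 FPKM. The complex I subunit mRNAs came below, with mt-Nd1 at 6416, mt-Nd4 at 4541, mt-Nd4l at 2947, mt-Nd2 at 2852, mt-Nd5 at 2283 and mt-Nd6 at 1340 FPKM. mt-Nd3 was lowest of the mRNAs at 569 FPKM, which put the top of the range at 72.1 times the bottom. The rRNAs mt-Rnr1 and mt-Rnr2, which poly(A) capture recovers poorly, stood at 1372 and 1202 FPKM. On this scale each gene exceeded the next in all 6 libraries, with these exceptions: mt-Nd4l exceeded mt-Nd2 in 4 libraries, mt-Rnr1 exceeded mt-Nd6 in 2, and mt-Nd6 exceeded mt-Rnr2 in 4, so those neighbours have no fixed order. The order depended on near-identical nuclear copies of part of the genome. With the counts of these copies added to their genes, an alternative chosen after seeing the data, mt-Co2 (21819 FPKM) and mt-Co3 (20384 FPKM) passed mt-Atp8, mt-Nd4l (5849 FPKM) exceeded mt-Nd2 in all 6 libraries, mt-Nd1 exceeded mt-Nd4 in only 4, and the range from mt-Co1 to mt-Nd3 narrowed to 40.2 times.

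All 13 mRNAs had lower CPM in the 3 Ube2fΔIEC libraries than in any Ube2fflox library. Over all 17900 genes tested, the CPM of 6.90% were lower in this way without overlap, and those of 7.26% higher. The same 13 of 13 held without Ube2fΔIEC replicate 1, where the share over all genes was 11.5%. None of them passed edgeR's quasi-likelihood test at an adjusted p under 0.05, a threshold that 0.0447% of all genes passed (8 genes, 4 of them lower, 0.0223%). At an unadjusted p under 0.05 stood 13 of 13 mRNAs, 2 of 2 rRNAs and 18 of 22 tRNAs, all with lower values, against 4.03% of all genes with lower values (8.18% in either direction). The median log2 fold change was -0.80 over the mRNAs and -0.86 over the 37 genes, beside -0.00 over all genes. Each of the 37 had a negative log2 fold change, as had 50.0% of all genes. Without Ube2fΔIEC replicate 1 the mRNA median was -0.82. DESeq2, run as an alternative, called 23 of the 37 genes lower (11 mRNAs and 12 tRNAs), against 0.760% of all genes called lower and 1.42% called in either direction. DESeq2 gave mt-Tf and mt-Tv no adjusted p. The calls thus depended on the tool, while all 37 values were negative in both.

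The mRNAs of complex IV, cytochrome c oxidase, which passes electrons to oxygen, were together the most abundant, through mt-Co1. In mean count, mt-Cytb and mt-Atp6 exceeded mt-Co2 and mt-Co3. mt-Co1 stood at 52152, 50128 and 54977 CPM in Ube2fΔIEC libraries, against 67757, 85570 and 118051 CPM in Ube2fflox libraries. Its log2 fold change was -0.79 (SE 0.20), with an adjusted p of 0.353 in edgeR and 0.000856 in DESeq2. The spread lay on the Ube2fflox side, where replicate 3 was far above replicate 1. mt-Co2, which receives electrons from cytochrome c, had 6453, 5676 and 6049 CPM in Ube2fΔIEC libraries, against 8717, 9762 and 14240 CPM in Ube2fflox libraries (log2 fold change -0.85, SE 0.18, edgeR adjusted p 0.257). mt-Co3, another core subunit, had 6980, 6132 and 6698 CPM in Ube2fΔIEC libraries, against 9330, 10361 and 14916 CPM in Ube2fflox libraries (log2 fold change -0.80, SE 0.18, edgeR adjusted p 0.282). All 3 followed the same order of libraries within the Ube2fflox group.

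The ATP synthase pair behaved alike. mt-Atp6, part of the proton channel, had 6701, 6408 and 7018 CPM in Ube2fΔIEC libraries, against 9089, 11814 and 16746 CPM in Ube2fflox libraries. Its log2 fold change was -0.90 (SE 0.20), with an edgeR adjusted p of 0.291. mt-Atp8, a small subunit translated from the same bicistronic mRNA, had 1984, 1904 and 2079 CPM in Ube2fΔIEC libraries, against 2695, 3354 and 4504 CPM in Ube2fflox libraries (log2 fold change -0.82, SE 0.17, edgeR adjusted p 0.249). mt-Cytb, the only mitochondrial subunit of complex III, had 9619, 8500 and 9084 CPM in Ube2fΔIEC libraries, against 12299, 13856 and 19955 CPM in Ube2fflox libraries (log2 fold change -0.76, SE 0.18, edgeR adjusted p 0.311). The genotypes did not overlap for any of these genes.

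The 7 subunit mRNAs of complex I, the NADH dehydrogenase, spanned the smallest and the largest fold changes among the mRNAs. mt-Nd5 had the smallest: 3680, 3683 and 3959 CPM in Ube2fΔIEC libraries, against 4673, 4923 and 7036 CPM in Ube2fflox libraries (log2 fold change -0.55, SE 0.16, edgeR adjusted p 0.417). mt-Nd3 had the largest: 174, 142 and 150 CPM in Ube2fΔIEC libraries, against 211, 248 and 418 CPM in Ube2fflox libraries (log2 fold change -0.91, SE 0.23, edgeR adjusted p 0.352). mt-Nd4 had 4996, 4855 and 5038 CPM in Ube2fΔIEC libraries, against 6519, 8028 and 12987 CPM in Ube2fflox libraries (log2 fold change -0.89, SE 0.23). mt-Nd3 and mt-Nd4 were the 2 mRNAs that DESeq2 did not call, at adjusted p of 0.168 and 0.145. Both had Ube2fflox replicate 3 far above the other 2. That did not set them apart, since mt-Nd6 had it too and DESeq2 called it, at an adjusted p of 0.00759.

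mt-Nd4l, whose reading frame runs into that of mt-Nd4, had 710, 693 and 736 CPM in Ube2fΔIEC libraries, against 981, 1115 and 1682 CPM in Ube2fflox libraries (log2 fold change -0.82, SE 0.18). mt-Nd1, the first mRNA after the rRNAs, had 5572, 4895 and 5080 CPM in Ube2fΔIEC libraries, against 6930, 7591 and 11338 CPM in Ube2fflox libraries (log2 fold change -0.73, SE 0.18). mt-Nd2 had 2619, 2361 and 2635 CPM in Ube2fΔIEC libraries, against 3411, 3701 and 5204 CPM in Ube2fflox libraries (log2 fold change -0.69, SE 0.16). None of those 3 overlapped between the genotypes. mt-Nd6, the sole mRNA of the opposite strand, had 568, 576 and 602 CPM in Ube2fΔIEC libraries, against 802, 776 and 1375 CPM in Ube2fflox libraries (log2 fold change -0.76, SE 0.21). Its fold change lay inside the range of the other 12, from -0.91 to -0.55. Since the strand of the reads is not given, the strands themselves were not compared.

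**Figure D2:**
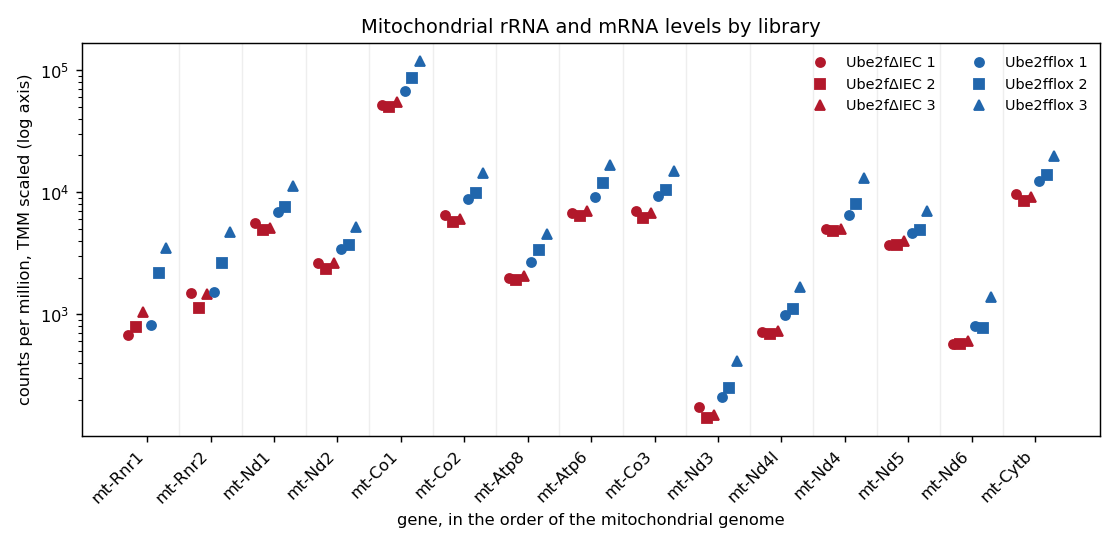
CPM of the 2 rRNAs and 13 mRNAs in each library (logarithmic axis), in genome order, with Ube2fΔIEC libraries in red on the left of each gene and Ube2fflox libraries in blue on the right; a symbol marks the replicate number. For all 13 mRNAs every red symbol lies below every blue one, as in mt-Co1 with 50128 to 54977 CPM against 67757 to 118051 CPM.

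The size of these fold changes varied with the Ube2fflox libraries used. With Ube2fflox replicate 3 left out the mRNA median log2 fold change was -0.55, and with Ube2fflox replicate 1 left out it was -0.96. Without Ube2fflox replicate 1, 3 of the 37 genes passed the edgeR threshold: mt-Rnr1 at an adjusted p of 0.0406, mt-Atp8 at 0.0395 and mt-Atp6 at 0.0406, among 90 genes called in all. When counts were scaled by library totals alone, the median of all genes moved to 0.15 and that of the mRNAs to -0.64, and each of the 13 stayed negative.

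The rRNAs were the most variable of the abundant genes. mt-Rnr1, the RNA of the small mitochondrial ribosomal subunit (MT:70-1024), stood at 673, 795 and 1051 CPM in Ube2fΔIEC libraries, against 822, 2190 and 3500 CPM in Ube2fflox libraries. The genotypes overlapped, since Ube2fflox replicate 1 lay among the Ube2fΔIEC libraries. mt-Rnr2, the RNA of the large subunit (MT:1094-2675), stood at 1491, 1117 and 1460 CPM in Ube2fΔIEC libraries, against 1531, 2654 and 4763 CPM in Ube2fflox libraries, with a bare gap between the groups. The log2 fold changes were -1.37 (SE 0.44) for mt-Rnr1 and -1.14 (SE 0.35) for mt-Rnr2, with edgeR adjusted p of 0.478 and 0.470. Both values exceeded those of the mRNAs in size, and so did their SEs. Without Ube2fflox replicate 3 the values were -0.84 for mt-Rnr1 and -0.63 for mt-Rnr2. In counts, mt-Rnr1 per 100 mt-Rnr2 was 45.1, 71.2 and 72.0 in Ube2fΔIEC libraries and 53.7, 82.5 and 73.5 in Ube2fflox libraries, so even the balance of the rRNAs varied among mice of a genotype.

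**Figure D3:**
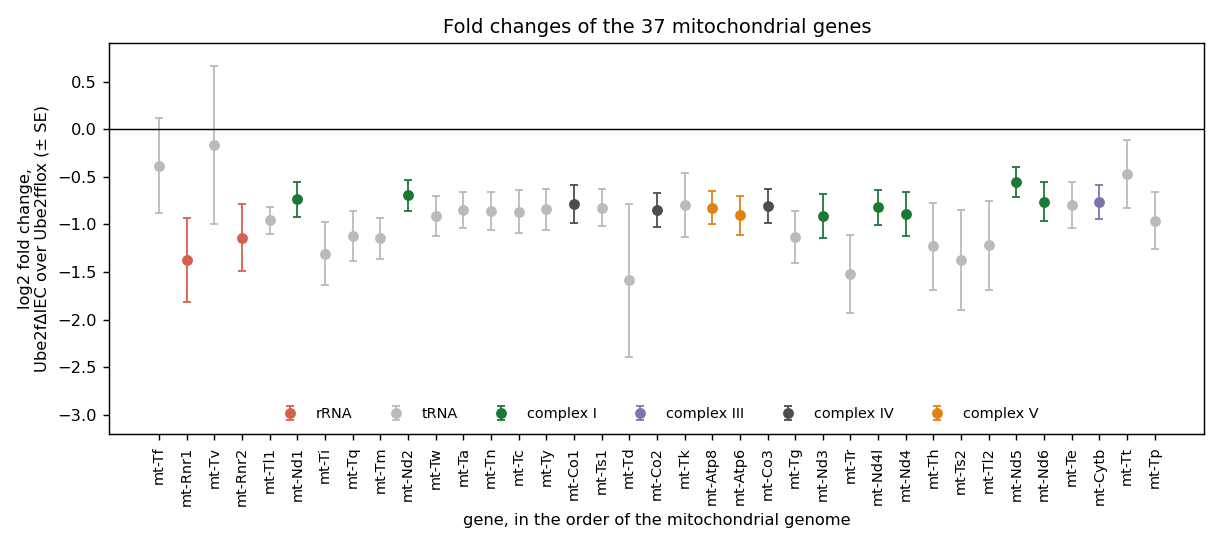
edgeR log2 fold change, Ube2fΔIEC over Ube2fflox, with its SE, for the 37 genes in genome order, coloured by class. All 37 points lie below 0 with TMM scaling, the mRNAs between -0.91 and -0.55; mt-Tv, at -0.17, turned positive with library totals alone (0.02), with the replicate block (0.19), in limma-voom (0.38) and without Ube2fflox replicate 3 (0.83).

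The composition of the mitochondrial mRNA pool differed little beside its size. mt-Co1 made up 51.0, 52.2 and 52.8% of the counts on the 13 mRNAs in Ube2fΔIEC libraries, and 50.8, 53.1 and 51.7% in Ube2fflox libraries. In counts, the share of each of 11 mRNAs overlapped between the genotypes, and mt-Nd5 and mt-Atp6 did not. When the counts of all genes were divided by the mitochondrial sum, 64.3% of them were higher in Ube2fΔIEC libraries without overlap and 0.302% were lower. Most genes thus did not overlap on this scale. The mitochondrial share was itself lower in Ube2fΔIEC libraries, which moves other genes up, so these percentages are no baseline for mt-Nd5 and mt-Atp6. mt-Nd5 stood higher within the pool, at 3.60, 3.84 and 3.80% in Ube2fΔIEC libraries against 3.50, 3.06 and 3.08% in Ube2fflox libraries. mt-Atp6 stood lower, at 6.56, 6.68 and 6.74% in Ube2fΔIEC libraries against 6.81, 7.33 and 7.33% in Ube2fflox libraries. For both genes Ube2fflox replicate 1 lay next to the Ube2fΔIEC libraries. As shares of the summed FPKM of the 13 mRNAs, mt-Nd5 stayed without overlap, but mt-Atp6 overlapped. On that scale mt-Atp6 held 10.04, 10.28 and 10.39% in Ube2fΔIEC libraries and 10.34, 11.21 and 11.18% in Ube2fflox libraries.

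Ratios between neighbouring genes describe the same pool and are not independent of the shares of mt-Nd5 and mt-Atp6. mt-Nd5 per 100 mt-Cytb, the mRNAs on either side of mt-Nd6, was 38.3, 43.3 and 43.6 in Ube2fΔIEC libraries and 37.99, 35.5 and 35.3 in Ube2fflox libraries. mt-Nd6 per 100 mt-Nd5, genes whose ends overlap on opposite strands, was 15.4, 15.6 and 15.2 in Ube2fΔIEC libraries and 17.2, 15.8 and 19.5 in Ube2fflox libraries. Both ratios rest on mt-Nd5 and were free of overlap, but by narrow margins. mt-Atp8 per 100 mt-Atp6 was 29.6, 29.7 and 29.6 in Ube2fΔIEC libraries and 29.7, 28.4 and 26.9 in Ube2fflox libraries, which overlapped. The bicistronic pair was thus in near-fixed proportion in Ube2fΔIEC mice and less so in Ube2fflox mice.

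By class, differences in share of the 37 genes were small, and their exact permutation tests could not go below 0.1. Complex V mRNAs held 8.31, 8.48 and 8.52% in Ube2fΔIEC libraries and 8.66, 9.12 and 8.96% in Ube2fflox libraries (difference -0.48 points, p 0.1), the only class without overlap. Complex I mRNAs held 17.5, 17.5 and 17.0% in Ube2fΔIEC libraries and 17.3, 15.9 and 16.9% in Ube2fflox libraries (difference 0.69 points, p 0.2 by exact permutation). The rRNAs held 2.07, 1.95 and 2.35% in Ube2fΔIEC libraries and 1.73, 2.91 and 3.48% in Ube2fflox libraries (exact permutation p 0.4). The tRNAs held 0.167, 0.176 and 0.179% in Ube2fΔIEC libraries and 0.187, 0.174 and 0.187% in Ube2fflox libraries (exact permutation p 0.3). The differences for complex III, complex IV and mt-Nd6 were 0.19, 0.19 and 0.02 points (exact permutation p 0.5, 0.8 and 0.9), and their signs turned when a library was left out.

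**Figure D4:**
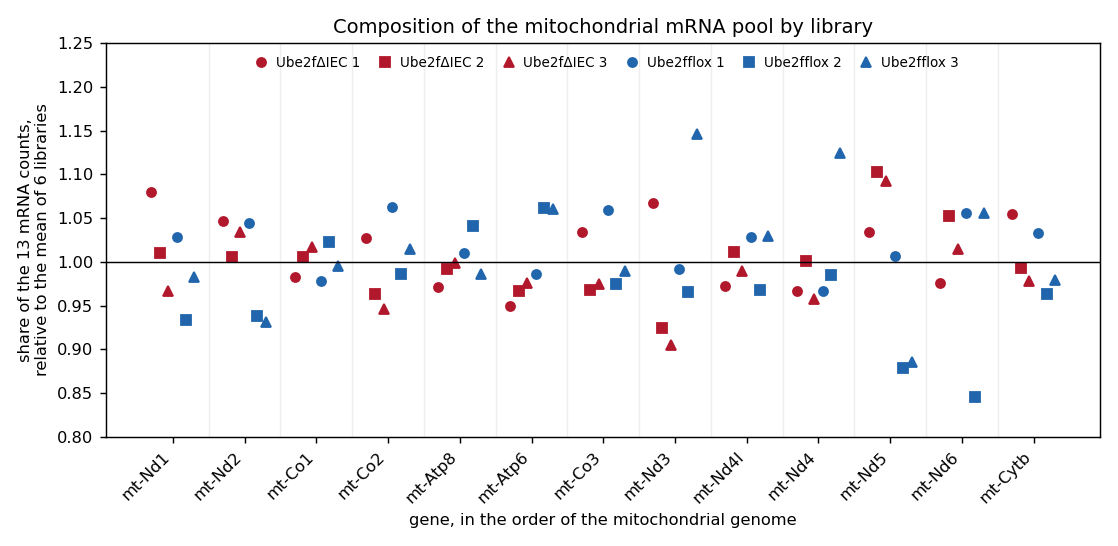
Share of each mRNA in the counts of the 13 mitochondrial mRNAs, divided by its mean over the 6 libraries; red symbols on the left of each gene are Ube2fΔIEC libraries and blue ones on the right are Ube2fflox libraries. mt-Nd5 lies higher in red (1.03 to 1.10 against 0.878 to 1.01) and mt-Atp6 lower (0.949 to 0.976 against 0.986 to 1.06), and the other 11 genes overlap.

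The tRNA genes, 59 to 75 bases long, held few counts in these poly(A)-selected libraries, whose sequenced fragments were on average longer than the gene. Counts ran from 2 to 14129, no tRNA gene had a count of 0, all 22 were tested, and 10 had a mean under 100 counts. The 4 with the highest mean count are shown with the anticodon in capitals, on the strand of the gene; the capitals mark the middle of the 7-base loop on the best-paired stem that reads the amino acid in the gene's name:
mt-Ts1 (serine, MT:6870-6938, opposite strand): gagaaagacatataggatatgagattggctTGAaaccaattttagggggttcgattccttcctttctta
mt-Tl1 (leucine, MT:2676-2750): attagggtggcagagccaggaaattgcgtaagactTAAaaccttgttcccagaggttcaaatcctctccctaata
mt-Tp (proline, MT:15356-15422, opposite strand): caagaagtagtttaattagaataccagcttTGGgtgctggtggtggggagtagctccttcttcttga
mt-Te (glutamate, MT:14071-14139, opposite strand): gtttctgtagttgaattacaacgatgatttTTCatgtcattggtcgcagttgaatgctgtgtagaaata

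mt-Ts1 held 54.1 to 59.3% of all tRNA counts. It lies on the strand opposite mt-Co1 and shares 3 bases with the end of that gene, and reads of a transcript running past the end of mt-Co1 cannot be told apart from reads of mt-Ts1. Its counts were 6186, 7451 and 8810 in Ube2fΔIEC libraries and 10502, 11295 and 14129 in Ube2fflox libraries. Per 100 mt-Co1 counts it stood at 0.199, 0.194 and 0.201 in Ube2fΔIEC libraries and 0.203, 0.193 and 0.211 in Ube2fflox libraries, a nearly constant ratio. Its log2 fold change was -0.82 (SE 0.20), with an edgeR adjusted p of 0.312, close to that of mt-Co1.

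mt-Tl1, which lies between mt-Rnr2 and mt-Nd1, had 15.2, 17.8 and 16.6 CPM in Ube2fΔIEC libraries, against 29.5, 27.6 and 38.9 CPM in Ube2fflox libraries. Its log2 fold change of -0.96 (SE 0.14) had the smallest adjusted p of the 37 genes in edgeR, 0.0958, and 1.26e-06 in DESeq2. Unlike mt-Rnr1, it separated the genotypes in full, with a gap wider than the spread in Ube2fΔIEC libraries. mt-Tp had 13.9, 15.8 and 17.8 CPM in Ube2fΔIEC libraries, against 18.8, 26.5 and 47.2 CPM in Ube2fflox libraries (log2 fold change -0.96, SE 0.30, edgeR adjusted p 0.470). mt-Te, beside mt-Nd6 on the same strand, had 11.7, 9.59 and 11.3 CPM in Ube2fΔIEC libraries, against 15.3, 14.2 and 27.2 CPM in Ube2fflox libraries (log2 fold change -0.80, SE 0.24, edgeR adjusted p 0.457). Neither of these overlapped.

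Over the 22 tRNA genes the CPM of 17 were lower in Ube2fΔIEC libraries without overlap, beside 6.90% of all genes, and the median log2 fold change was -0.93. The log2 fold changes ran from -1.59 to -0.17. As shares of the 37 genes, 5 tRNAs were lower without overlap and 0 higher. The 5 were mt-Ti (isoleucine), mt-Tq (glutamine), mt-Tm (methionine), mt-Tg (glycine) and mt-Tr (arginine), named after their values were seen. Of all genes on that scale, 0.302% were lower and 64.3% higher without overlap. Those percentages largely follow from the lower mitochondrial share in Ube2fΔIEC libraries, so they are no baseline for the 5 tRNAs. mt-Ti, mt-Tq and mt-Tm follow each other between mt-Nd1 and mt-Nd2. mt-Tm, the most abundant of the 5, had 3.05, 3.68 and 4.59 CPM in Ube2fΔIEC libraries, against 7.23, 7.68 and 10.2 CPM in Ube2fflox libraries (log2 fold change -1.15, SE 0.21, adjusted p 0.184 in edgeR and 0.000264 in DESeq2).

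The 3 adjacent tRNA genes between mt-Nd4 and mt-Nd5 went against the sum of the others in Ube2fflox replicate 3 and Ube2fΔIEC replicate 1. This is why they are shown, and they too were chosen after their values were seen:
mt-Th (histidine, MT:11546-11612): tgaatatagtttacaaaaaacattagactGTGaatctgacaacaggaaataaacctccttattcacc
mt-Ts2 (serine, MT:11613-11671): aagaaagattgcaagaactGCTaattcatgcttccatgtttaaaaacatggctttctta
mt-Tl2 (leucine, MT:11671-11741): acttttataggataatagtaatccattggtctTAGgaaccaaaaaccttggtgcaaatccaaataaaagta
Their summed counts were 114, 65 and 76 in Ube2fΔIEC libraries and 237, 262 and 109 in Ube2fflox libraries. Per 1000000 counts on their neighbours mt-Nd4 and mt-Nd5 they came to 220.3, 99.5 and 106 in Ube2fΔIEC libraries and 277, 296 and 96.0 in Ube2fflox libraries. Ube2fflox replicate 3, with the highest mRNA levels, thus lay with Ube2fΔIEC replicates 2 and 3, and Ube2fΔIEC replicate 1 lay nearer to the other 2 Ube2fflox libraries. The other 19 tRNA genes summed to 10318, 13127 and 15198 counts in Ube2fΔIEC libraries and 19193, 19562 and 25003 counts in Ube2fflox libraries, with Ube2fflox replicate 3 the highest. The log2 fold changes of the trio were -1.23 (SE 0.46), -1.37 (SE 0.52) and -1.22 (SE 0.47) for mt-Th, mt-Ts2 and mt-Tl2.

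**Figure D5:**
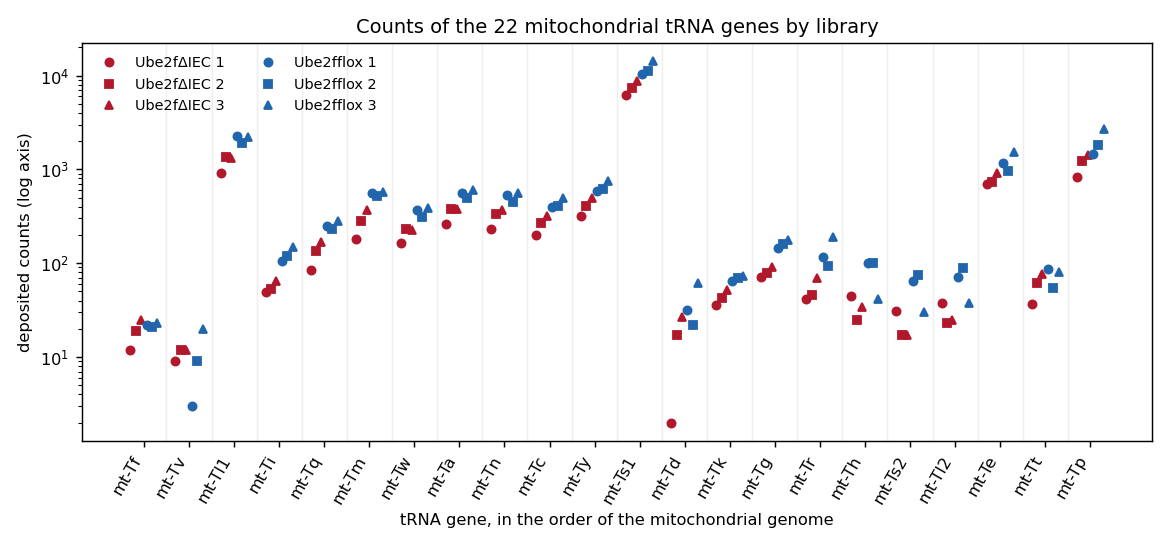
Deposited counts, not scaled to library size, of the 22 tRNA genes in each library (logarithmic axis), in genome order, with Ube2fΔIEC libraries in red on the left of each gene and Ube2fflox libraries in blue on the right. mt-Ts1 holds the most counts (6186 to 14129), and at mt-Th, mt-Ts2 and mt-Tl2 the blue triangle of Ube2fflox replicate 3 falls below the other blue symbols.

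Part of the mitochondrial sequence also exists in the nucleus, and the counts on those copies matter for the shares above. A search of the transcripts of GENCODE M21 found 14 rows of the table with at least 90% identity over at least 100 bases of a mitochondrial gene. Of these, 7 lie in a row on chromosome 1 (GRCm38 chr1:24611535-24616197) and match mt-Nd4, mt-Nd4l, mt-Nd3, mt-Co3, mt-Atp6, mt-Co2 and mt-Co1 at 99.71% to 100% identity. mt-Atp8 lies between mt-Co2 and mt-Atp6 on the mitochondrial genome, and no copy of it was among the 14. 5 of the 7 had no mismatch in the aligned part. The copy of mt-Co1, Gm29216, aligned over 483 of 1545 bases and differed at A1066T, and that of mt-Nd3, Gm28438, differed at T3C, counted from the first base of the mitochondrial gene. The start of mt-Nd3 and of its copy are printed with the differing base in capitals to show how little separates them:
mt-Nd3 start: atTaacctgtaca
Gm28438 start: atCaacctgtaca

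Counts on the copies tracked those on the genes. Gm10925 held 104 to 105% of the count of mt-Atp6, Gm28437 held 93.9 to 99.2% of that of mt-Co3, and Gm28661 held 97.1 to 98.9% of that of mt-Co2. Gm29216, which covers part of the gene, held 8.15 to 8.98% of the count of mt-Co1. These 4 had the highest mean counts among the copies. The sources used here do not say how reads with several matches were counted, so reads of the copies and of the genes cannot be told apart. The copies took 2.95, 2.68 and 2.88% of all counts in Ube2fΔIEC libraries, and 3.64, 4.202 and 5.71% in Ube2fflox libraries. With them added, the mitochondrial share became 14.1, 13.04 and 14.02% in Ube2fΔIEC libraries and 17.1, 20.2 and 27.0% in Ube2fflox libraries. mt-Nd1, mt-Nd2, mt-Nd5, mt-Nd6 and mt-Cytb, which have no such near-identical copy, held 2.35, 2.12 and 2.23% of all counts in Ube2fΔIEC libraries and 2.77, 2.96 and 4.03% in Ube2fflox libraries. The genotypes were thus apart also where no near-identical copy was found.

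The nuclear factors listed for mitochondrial RNA and its translation, mitochondrial ribosomal proteins aside, were not called between the genotypes. In edgeR the 37 mitochondrial genes were not called either. Of 54 genes listed for transcription, replication, RNA processing, translation and biogenesis, 34 had positive and 20 negative log2 fold changes, with a median of 0.03. edgeR and DESeq2 called 0 of them, beside 0.0447% and 1.42% of all genes. At an unadjusted edgeR p under 0.05 stood 2 of them, beside 8.18% of all genes. Tfam, which packs mitochondrial DNA and starts its transcription, had 37.2, 38.6 and 35.9 CPM in Ube2fΔIEC libraries and 40.1, 31.8 and 33.8 CPM in Ube2fflox libraries (log2 fold change 0.08, SE 0.10). Polrmt, the mitochondrial RNA polymerase, had 38.4, 40.8 and 41.6 CPM in Ube2fΔIEC libraries and 46.8, 36.1 and 36.7 CPM in Ube2fflox libraries (log2 fold change 0.01, SE 0.11). Lrpprc, which with Slirp stabilises mitochondrial mRNAs, had 65.6, 67.5 and 74.0 CPM in Ube2fΔIEC libraries and 79.0, 64.3 and 62.3 CPM in Ube2fflox libraries (log2 fold change 0.01, SE 0.10). The genotypes overlapped for all 3, and the signs of Polrmt and Lrpprc turned when a library was left out.

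Slirp had 5.68, 3.95 and 4.52 CPM in Ube2fΔIEC libraries and 6.36, 5.99 and 5.20 CPM in Ube2fflox libraries (log2 fold change -0.31, SE 0.19, edgeR adjusted p 0.718). Of the listed genes with positive fold changes, those of smallest p were Pprc1, a coactivator of the PGC-1 family (0.25, SE 0.08, edgeR adjusted p 0.481), Pnpt1, the mitochondrial polynucleotide phosphorylase (0.29, SE 0.11, edgeR adjusted p 0.537), and Fastkd3, of the FASTK family of mitochondrial RNA-binding proteins (0.35, SE 0.16, edgeR adjusted p 0.634). Among the 9 factors named here, Pprc1, Pnpt1 and Mtif2 did not overlap between the genotypes. Of all genes tested, the CPM of 6.9% were lower without overlap and those of 7.26% higher. Pprc1, Pnpt1 and Mtif2 were named because of their small p, which favours genes without overlap. Their separation is therefore no result for the listed factors as a set, for which overlap is not given. Pprc1 stood at 62.1, 67.5 and 71.8 CPM in Ube2fΔIEC libraries and 59.3, 56.6 and 53.1 CPM in Ube2fflox libraries. Pnpt1 stood at 48.0, 44.7 and 42.3 CPM in Ube2fΔIEC libraries and 42.0, 34.9 and 33.4 CPM in Ube2fflox libraries. Mtif2, lower, stood at 25.98, 26.6 and 27.1 CPM in Ube2fΔIEC libraries and 31.2, 28.1 and 28.4 CPM in Ube2fflox libraries. On the negative side stood Esrra, a nuclear receptor for genes of oxidative metabolism (-0.13), and Mtif2, a mitochondrial translation initiation factor (-0.14), beside Slirp. With library totals alone Esrra stood at 0.02 and Mtif2 at 0.01. The 78 genes of mitochondrial ribosomal proteins had 46 positive and 32 negative fold changes with a median of 0.02. edgeR called 0 of them, with 5 at an unadjusted p under 0.05, and DESeq2 called 1 higher. Over all genes, 8.18% stood under that p and DESeq2 called 1.42% in either direction.

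Of the markers of cell types within the epithelium, the summed goblet cell level separated the genotypes, in the direction opposite to the mitochondrial share. Its part in the result was not tested. The 5 goblet cell markers summed to 15253, 15482 and 15728 CPM in Ube2fΔIEC libraries, against 10296, 10566 and 8702 CPM in Ube2fflox libraries, without overlap. The markers did not move together: 3 had positive and 2 negative fold changes, from -0.36 to 2.08 in log2. edgeR called 0 of them (4 had an unadjusted p under 0.05, not all of these positive), and Muc2 and Clca1 rose in DESeq2. Over all genes, 8.18% had an unadjusted edgeR p under 0.05 and DESeq2 called 1.42% in either direction. The 6 absorptive colonocyte markers, all with negative fold changes, summed to 8109, 9924 and 7386 CPM in Ube2fΔIEC libraries and 12757, 8486 and 8428 CPM in Ube2fflox libraries, which overlapped; Car4 and Aqp8 fell in DESeq2. The 4 cycling crypt markers summed to 342, 318 and 243 CPM in Ube2fΔIEC libraries and 316, 186 and 169 CPM in Ube2fflox libraries, and overlapped. Their fold changes were positive for 3 and negative for 1. edgeR called 0 of them (2 had an unadjusted p under 0.05), and DESeq2 called 1 higher.

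Markers of cells from outside the epithelium were low. T and innate lymphoid markers (5 of 5 with negative fold changes) summed to 18.8, 22.9 and 24.4 CPM in Ube2fΔIEC libraries and 15.2, 27.5 and 45.1 CPM in Ube2fflox libraries. Ube2fflox replicate 3 had both the highest mitochondrial share and the highest T and innate lymphoid sum. It was also highest for the myeloid, B and plasma, fibroblast, smooth muscle and erythroid markers, but not for the endothelial one. The part of these cells was not tested. B and plasma cell markers summed to 1.80 to 2.79 CPM in Ube2fΔIEC libraries and 0.719 to 3.56 CPM in Ube2fflox libraries. Myeloid markers (3 of 4 listed were tested) summed to 3.62 to 5.16 CPM in Ube2fΔIEC libraries and 3.22 to 9.92 CPM in Ube2fflox libraries. Fibroblast markers stayed at or below 2.19 CPM in Ube2fΔIEC libraries and 2.93 CPM in Ube2fflox libraries. Only 1 of 3 smooth muscle markers was tested, at or below 0.168 CPM in Ube2fΔIEC libraries and 0.353 CPM in Ube2fflox libraries. Likewise 1 of 2 endothelial markers was tested, at or below 3.82 CPM in Ube2fΔIEC libraries and 4.12 CPM in Ube2fflox libraries. Erythroid markers summed to 44.0, 16.8 and 11.7 CPM in Ube2fΔIEC libraries and 34.7, 25.7 and 47.2 CPM in Ube2fflox libraries.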

How the data were processed

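RNA of colon epithelial cells from 6 mice was read from 1 table holding, for each gene and each library, a count and an FPKM value. Counts are deposited raw, per the file headers, as whole numbers. FPKM values were made by the authors, per the file headers, and divide by gene length and library size. The tools DESeq2, edgeR, StringTie 2.1.6, HISAT2 2.2.1 and cutadapt 1.9 and the build mm10 are named per the submitters' processing notes, without their roles; strandedness and the treatment of reads with several matches are not given in the sources used here. Totals ran from 55971362 to 77524693 counts, and replicates are separate mice per the labels.

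All genes passing filterByExpr (17900) were scaled by TMM and tested with edgeR 4.0.16 (quasi-likelihood, 2-sided, Benjamini-Hochberg over all genes, threshold 0.05, genotype only; R 4.3.3, limma 3.58.1), with a biological coefficient of variation of 24.8%. The SE was taken as the size of the log2 fold change over the root of its F statistic. DESeq2 1.42.0, limma-voom, other scalings, no filter, a replicate block and each library left out were alternatives. Shares were compared by exact permutation over libraries (smallest p 0.1) with Wilson intervals. Nuclear copies were found with blastn 2.17.0, sequences come from GENCODE M21. The test was checked on simulated data.

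The named genes are all mRNAs and rRNAs, the 4 tRNAs and 4 copies of highest mean count, Tfam, Polrmt, Lrpprc, Slirp and, per direction, the 3 listed nuclear factors of smallest p with at least 1 CPM. Members and lists were chosen with earlier results of these data known.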

Additional observations from a re-analysis of the deposited data

How the results depend on the processing

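The mitochondrial share of all counts was lower in Ube2fΔIEC libraries under the alternatives run: the difference was -7.68 points with nuclear copies added, -6.51 with copies out of the denominator, and -7.73 to -3.80 with a library left out. Averaging differences within replicate numbers returns -6.00 by construction, so it is no check. All 22 named mitochondrial genes kept their direction in 286 of 286 combinations of gene and alternative; of the other tRNAs, mt-Tv turned in 4 alternatives. Genes called numbered 8 in edgeR (1464 at an unadjusted p under 0.05), 18 (13 higher, 5 lower) with library totals alone, 255 (119 higher, 136 lower) in DESeq2, 5 (2 higher, 3 lower) in limma-voom, and 0 to 90 (0 to 39 higher, 0 to 51 lower) with a library left out. The 0 came without Ube2fΔIEC replicate 1 (1129 at an unadjusted p under 0.05; giving other results without this library too was chosen after seeing the data), Ube2fΔIEC replicate 3 (1127) or Ube2fflox replicate 2 (1240), the 90 without Ube2fflox replicate 1; the cause was not tested. Mitochondrial genes called lower numbered 0 in edgeR, 23 in DESeq2 (11 of them mRNAs), and 0 to 3 (0 to 2 mRNAs) with a library left out. The within-genome share difference of complex IV was -0.20 points as a share of the 13 mRNAs and -0.23 to 0.53 with a library left out, that of complex III -0.0094 to 0.42 and that of mt-Nd6 -0.020 to 0.041; the cause was not tested. With a library left out, the log2 fold change ran from -0.054 to 0.14 for Polrmt and from -0.056 to 0.12 for Lrpprc; with library totals alone Esrra stood at 0.021 and Mtif2 at 0.013. Same-numbered libraries correlated at 0.08, -0.01 and 0.08 in their deviations, so no shared deviation was seen. These values cannot tell whether same-numbered mice shared a litter or a day. With the replicate block 10 genes were called (4 higher, 6 lower) and 0 mitochondrial ones. Depth limits the rarest tRNAs, such as mt-Td with 2 counts in Ube2fΔIEC replicate 1.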

Other observations

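The 13 mRNAs can be set apart by whether they lie in the stretch copied to chromosome 1, a split chosen after the values were seen and given without a test. The 8 mRNAs from mt-Co1 to mt-Nd4 had log2 fold changes of -0.91 to -0.79 (median -0.84), and the 5 outside it, mt-Nd1, mt-Nd2, mt-Nd5, mt-Nd6 and mt-Cytb, had -0.76 to -0.55 (median -0.73), so the ranges did not meet. The ranges stayed apart in 11 of 13 alternatives, and met without Ube2fΔIEC replicate 1 and without Ube2fflox replicate 2. The stretch is also a contiguous part of the genome, so position and the presence of a copy cannot be told apart. As a share of the 37 genes, the 5 mRNAs outside held 21.1, 20.4 and 20.0% in Ube2fΔIEC libraries and 20.7, 18.6 and 18.9% in Ube2fflox libraries, which overlapped.

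Among copies with lower identity, Gm13340, at 97.6% identity to the whole of mt-Co1, had a mean of 26.7 ± 1.51 CPM in Ube2fΔIEC mice and 50.3 ± 15.9 CPM in Ube2fflox mice (SD, n = 3 each), without overlap, with an edgeR log2 fold change of -0.91 (SE 0.20, adjusted p 0.282). Its counts were 0.0499 to 0.0574% of those of mt-Co1.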
